A study of Mus musculus with 8 samples.

Results

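Primordial germ cells (PGCs), the embryonic precursors of sperm and eggs, were compared before and after the first 3 days of culture. The comparison used 4 of the 8 arrays of the series: 2 of freshly isolated cells of stage E11.5 (labelled E11.5PGCs) and 2 of cells labelled Day3(2i+A83). It was made across all probes that both groups had measured, and arrays with the same replicate number were paired. All samples were mouse cells, labelled as primordial germ cells in both groups, with a Nanog-GFP reporter, a fluorescent mark driven by the Nanog gene, on one-colour TORAY oligonucleotide arrays. The medium named in the labels was Knockout DMEM with serum replacement at 15%, LIF and bFGF. The inhibitors were PD325901 at 1 µM (it blocks MEK), CHIR99021 at 3 µM (it blocks GSK3) and A83-01 at 250 nM (it blocks the Activin, Nodal and TGF-beta type I receptors). That text stands on the E11.5 PGC samples too, so only the sample names tie the inhibitors to the cultured cells. The series description says that pluripotent candidates were purified by FACS during culture, without giving the gate for each group. No label says whether the replicates came from separate embryos or cultures, so p-values measure only the spread between these samples, which may be technical. With bulk RNA, fewer cells of a type and less RNA per cell cannot be told apart.

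PGCs express Nanog and other pluripotency genes but do not normally self-renew in culture. Under LIF, bFGF and a suitable surrounding, some convert to embryonic germ (EG) cells, pluripotent lines that resemble embryonic stem cells. Blocking MEK and GSK3 while LIF activates STAT3 is the standard way to hold mouse stem cells in the naive state, and p53, the sensor of DNA damage and stress, is a known brake on the conversion of PGCs.

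The arrays reported 21660 to 22404 probes each among the 4 used here, and every array had a median intensity of about 20. On all 4 arrays, each of 10 germ cell markers was above the floor, and 9 of the 10 lay above an intensity of 100. Of 20678 probes tested, 14850 were above the floor on all 4 arrays. The summed intensity of the 10 markers was 18687 and 11495 in E11.5 PGC and 9476 and 8079 at Day3. The floor, the 25th percentile of all measured intensities, was 5.18. The array names fall into 2 series, A with replicate 1 and B with replicate 2 of both groups, so each series holds 1 pair of the arrays compared. Of the other arrays, those of day 6 of culture (Day6) were split in the same way, but both EG arrays were of series A. In the 2 groups compared, replicates with the same number deviated together (r = 0.62 between the deviations of the E11.5 PGC and Day3 arrays). The series entered the model as a block. A change is the Day3 level minus the E11.5 PGC level on the log2 intensity scale, given ± its standard error from limma with 2 arrays in each group.

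Of 20678 probes tested, 1725 differed at an adjusted p under 0.05, which is 8.34% of those tested. Day3 was higher at 898 (4.34%) and lower at 827 (4.0%). With no replicate block the count was 431 (2.08%), with 275 higher and 156 lower. Leaving out 1 array at a time gave 496 and 601 calls without E11.5 PGC replicates 1 and 2, and 134 and 105 without Day3 replicates 1 and 2. The median change over all probes tested was −0.13. In 69.6% of the probes both series changed in the same direction. A change of at least 1 log2 unit in both series was seen higher at 883 probes (4.27%) and lower at 657 (3.18%), and 44 probes changed by that much in opposite directions.

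**Figure D1:**
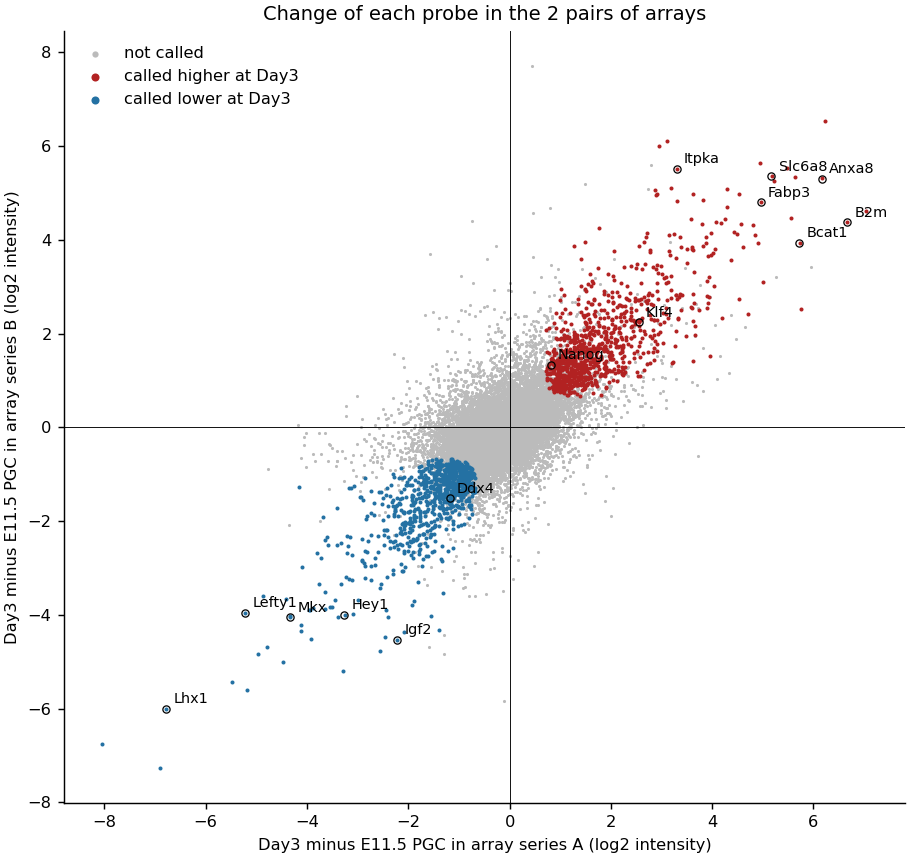
Change of each probe from E11.5 PGC to Day3 (log2 intensity) in array series A (x axis) and series B (y axis), for the 20678 probes tested; red and blue points were called higher or lower at Day3 and grey points were not, and circled genes are named. The 1725 called probes lie in the quadrants where both series share a sign, and Lhx1 lies at the low end of both axes.

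Among called genes above the floor on all 4 arrays, the 12 with the highest change held genes of metabolism, membranes and the cell surface. Here and below, a gap between the groups in called genes only describes their values, because these genes were named for their change. Slc6a8, the creatine transporter, read 12.5 and 5.84 in E11.5 PGC and 452 and 239 at Day3, a change of 5.27 ± 0.32 (adjusted p = 0.00147). Bcat1, which starts the breakdown of branched-chain amino acids, read 16.3 and 19.7 against 859 and 302 (4.83 ± 0.43). Aqp3, a channel for water and glycerol, read 31.3 and 30.2 against 726 and 956 (4.76 ± 0.35). In each of these the 2 groups were far apart and both Day3 arrays were high. Fabp3, a fatty acid carrier, was already bright in E11.5 PGC at 214 and 93.0 and reached 6681 and 2594 (4.88 ± 0.36). Cd63, a tetraspanin of late endosomes, read 120.4 and 80.7 and then 2849 and 1629 (4.45 ± 0.22). Klf9, a zinc finger factor, read 11.7 and 11.6 and then 329 and 232 (4.57 ± 0.21, adjusted p = 0.00083). The replicates of these 3 genes lay close together next to the size of the change. The C1 inhibitor gene Serping1 (4.50 ± 0.37), the serine protease Htra1 (4.48 ± 0.33), the lipid droplet coat gene Plin3 (4.42 ± 0.35) and the inositol phosphate kinase Itpka (4.41 ± 0.51) completed this side with B2m and Ly6c1.

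B2m, the light chain of MHC class I, had the highest value of the 12 and the widest error: 17.0 and 29.3 in E11.5 PGC against 1727 and 610.0 at Day3, a change of 5.52 ± 1.04. Its change was 6.67 for pair A but 4.38 for pair B, and the call was lost with no replicate block (adjusted p = 0.0874), without E11.5 PGC replicate 1 and without either Day3 array. Ly6c1, a surface antigen with near-identical relatives that the probe may also bind, read 32.9 and 15.2 against 1225 and 584 (5.24 ± 0.65; adjusted p = 0.0531 with no replicate block). B2m also differed between the 2 Day6 arrays, at 3942 and 191.

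The 12 lowest changes included signalling and transcription genes and a piRNA factor. Lefty1, a Nodal antagonist, fell from 400.4 and 269 to 10.8 and 17.4 (−4.58 ± 0.32, adjusted p = 0.00209). Mkx, a homeobox factor of tendon, fell from 288 and 234 to 14.3 and 14.1 (−4.19 ± 0.20). Runx1t1, a corepressor, fell from 209 and 288 to 14.1 and 20.1 (−3.87 ± 0.22), and Hey1, a Notch and BMP responsive repressor, from 596 and 540 to 62.4 and 33.9 (−3.62 ± 0.25). All 4 genes had both Day3 arrays far below both E11.5 PGC arrays. Mogat2, an enzyme of fat synthesis, fell from 1099 and 350 to 72.3 and 15.3 (−4.22 ± 0.44), so the replicates differed in both groups. Igf2, the imprinted growth factor, read 38.8 and 133 and then 8.30 and 5.80 (−3.37 ± 0.50; −2.22 for pair A but −4.53 for pair B). Crygs (−3.18 ± 0.24), Hmgn5 (−3.16 ± 0.43), Asz1 (−3.05 ± 0.66), Lhpp (−3.03 ± 0.22), Ttc21b (−3.02 ± 0.46) and Crabp1 (−2.99 ± 0.38) were the others. Of the 24 genes, 20 were called with no replicate block; 19 and 21 were called without E11.5 PGC replicates 1 and 2, and 17 and 15 without Day3 replicates 1 and 2. B2m, Ly6c1, Asz1 and Crabp1 were those lost with no block.

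**Figure D2:**
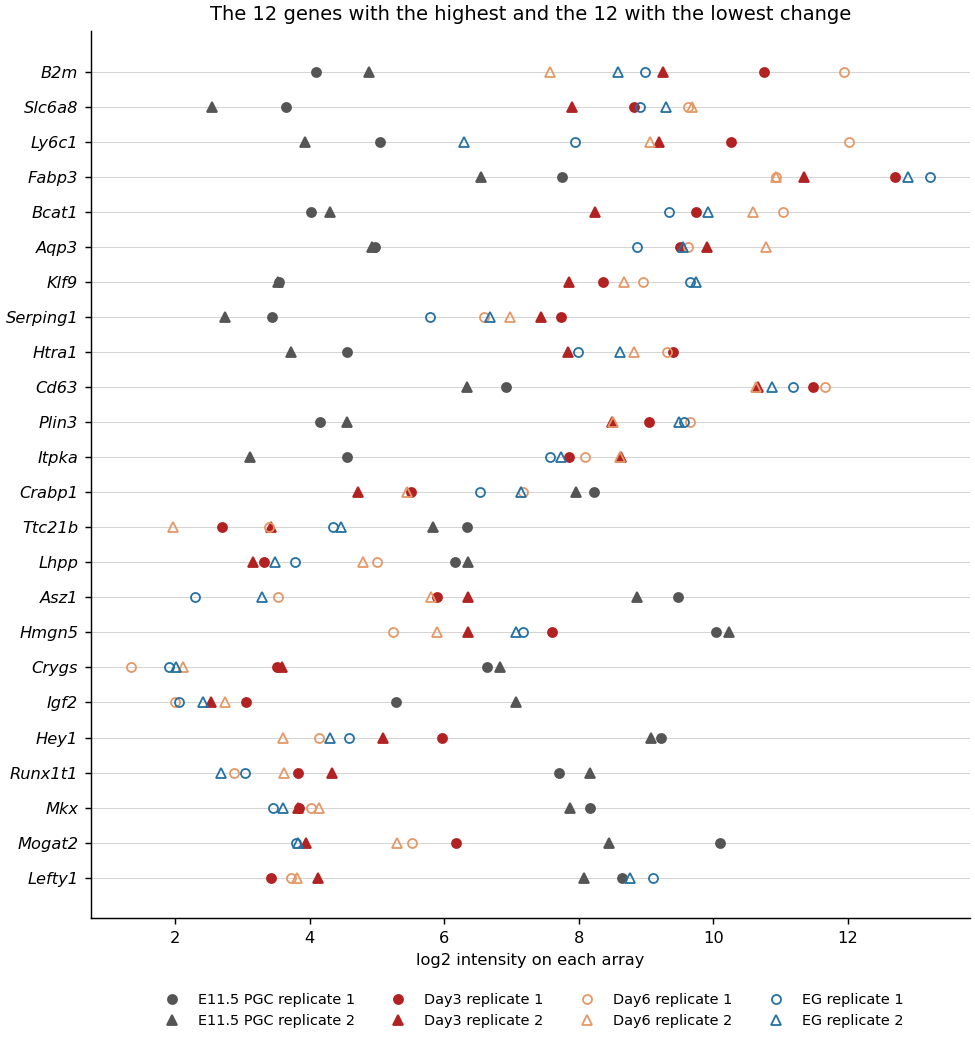
Log2 intensity (x axis) of the 24 most changed genes above the floor, 12 each way (y axis); filled symbols are E11.5 PGC (grey) and Day3 (red) arrays, open symbols are Day6 (orange) and EG (blue), with circles for replicate 1 and triangles for replicate 2. For all 24 genes the 2 Day3 arrays lie on 1 side of the 2 E11.5 PGC arrays, which their choice by large called changes nearly fixes. The EG arrays of Lefty1, at 551 and 434, lie beside or above the E11.5 PGC arrays.

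The later groups were set beside these values as levels only, with no comparison. Lefty1 stayed at 13.2 and 14.0 on the Day6 arrays and read 551 and 434 in EG cells. Mkx read 16.1 and 17.5 at Day6 and 10.99 and 12.1 in EG cells. Slc6a8 read 785 and 818 at Day6 and 481 and 627 in EG cells.

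Some called genes lay at the floor in 1 group, so the size of their change is not exact. Among those near the floor in E11.5 PGC were Efemp1, an extracellular matrix glycoprotein (4.23 and 4.36 against 200.4 and 95.8), and Saa3, an acute phase gene that STAT3 induces (4.22 and 2.60 against 82.7 and 88.1). Patl2, an RNA-binding translational repressor of oocytes, read 3.63 and 3.04 against 57.1 and 54.2. Spats1 (2.93 and 2.41 against 56.0 and 52.3), Tm4sf1 (3.44 and 1.83 against 454 and 45.1) and Anxa8 (2.19 and 1.11 against 158 and 44.2) were the others named by the rule. Tm4sf1 was uneven within Day3, and Spats1 and Patl2 were even. The calls of Tm4sf1 (adjusted p = 0.0447, and 0.256 with no replicate block) and Efemp1 (0.0196 and 0.0745) held in 1 of the 4 fits that left out an array, the one without E11.5 PGC replicate 2. Spats1 lost its call without either Day3 array and Saa3 without Day3 replicate 2. Near the floor at Day3 were Umodl1 (90.7 and 112 against 4.10 and 3.48), the phosphatase Ptpre (70.1 and 84.6 against 4.05 and 4.55) and Nphs1, the nephrin gene (78.7 and 67.0 against 5.05 and 4.50). Enpp2, the autotaxin gene, read 54.8 and 66.1 against 1.99 and 2.58, and its call was lost in each of those 4 fits. Umodl1 lost its call without either Day3 array. Scgn (51.1 and 48.1 against 4.66 and 3.77) and Klk8 (39.1 and 45.3 against 1.94 and 2.78) completed the set. Nphs1 was bright in EG cells, at 436 and 269.7. In all, 108 genes called higher were near the floor in E11.5 PGC and 96 called lower were near it at Day3.

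Lhx1, a homeobox gene, had the lowest change of any called probe with a symbol. It read 513 and 335 in E11.5 PGC and 4.68 and 5.25 at Day3, a change of −6.39 ± 0.33 (adjusted p = 0.000926). The Day3 arrays were at about the floor, so that size too is not exact. Only 2 called probes, neither with a symbol, had a lower change. The call was kept without each of the 4 arrays in turn.

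Gene lists are described by how many tested members were called, against 4.34% higher and 4.0% lower over all probes, and by their median change, against −0.13. Counts at an unadjusted limma p under 0.05 stand against 5452 of all 20678 probes tested, in either direction. After each count the bracketed numbers are the calls with no replicate block and then without E11.5 PGC replicates 1 and 2 and Day3 replicates 1 and 2, in that order. Single calls given without brackets were lost in at least 1 of these settings, except Itga6 and Tbx3. Without either EG array some counts moved by over 1.5 times. In lists that lost more than 1 higher call, those left were 10 p53, 8 YAP and SRF, 5 NRF2 and 5 naive pluripotency genes. Also left were 5 stress response, 5 lysosome, 2 apoptosis and 0 gonadal somatic genes. In lists that lost more than 1 lower call, those left were 4 later germ cell, 3 Nodal, 1 Wnt and 1 blood gene. Counts of members higher or lower in both series stand against the 69.6% of all probes that moved the same way in both. That share was not split by direction. The lists share some members.

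**Figure D3:**
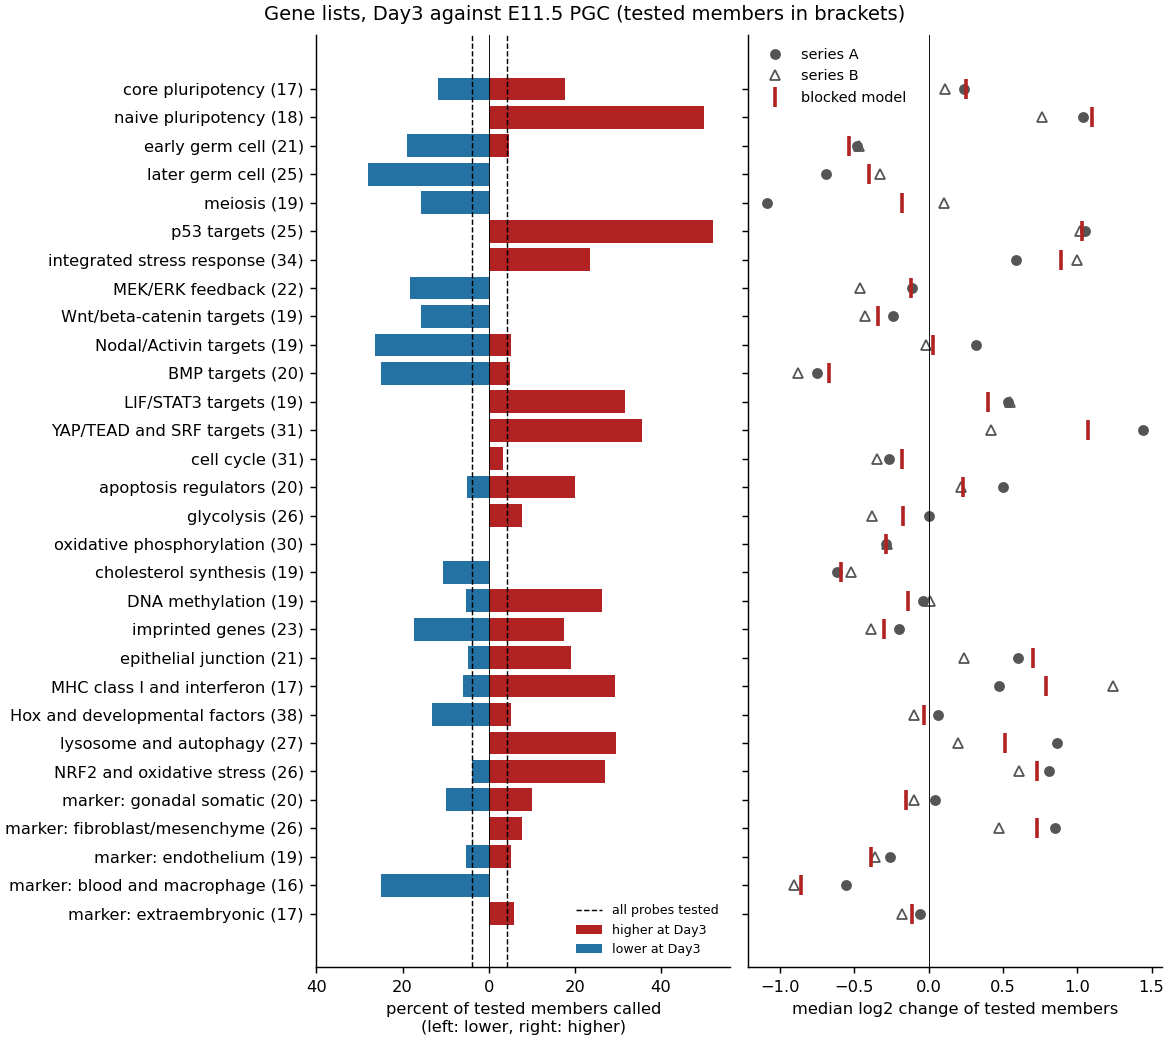
Left, percent of the tested members of each list (number in brackets) called higher (red, to the right) or lower (blue, to the left) at Day3, with dashed lines at the 4.34% and 4.0% of all probes tested. Right, median log2 change of the tested members in series A (circles), series B (triangles) and the blocked model (red bars); p53 targets have medians of 1.05 and 1.02 in the 2 series, while YAP/TEAD and SRF targets have 1.44 and 0.42.

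The p53 targets were the list with the most members called. Of 25 tested, 13 were higher (7; 9, 8, 5 and 5) and 0 lower, with 0 lower also at an unadjusted limma p under 0.05. The median change was 1.03, and 21 members were higher in both series. Among genes that restrain the cell cycle and growth signals, Phlda3, which blocks AKT at the membrane, read 42.1 and 23.5 in E11.5 PGC and 759 and 482 at Day3 (4.27 ± 0.33, adjusted p = 0.00233). Ccng1, the cyclin G1 gene, read 32.3 and 29.2 against 366 and 408 (3.65 ± 0.20, adjusted p = 0.00105). Cdkn1a, the p21 inhibitor of cyclin-dependent kinases, read 71.6 and 31.1 against 357 and 209 (2.53 ± 0.21; adjusted p = 0.00338, and 0.0526 with no replicate block). In all 3 both Day3 arrays exceeded both E11.5 PGC arrays. The polo-like kinase Plk2 rose by 2.63 ± 0.19 and the antiproliferative gene Btg2 by 2.36 ± 0.23.

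The list also holds genes of cell death. Eda2r, a receptor of the TNF family, read 4.72 and 6.50 against 42.9 and 61.3 (3.21 ± 0.24), starting at about the floor. Fas, the death receptor, read 18.5 and 18.4 against 84.3 and 61.0 (1.96 ± 0.21). The BH3-only gene Bbc3 read 24.3 and 20.9 against 61.3 and 39.0 (1.12 ± 0.22). Pmaip1, another BH3-only target, was not called. The feedback ligase Mdm2, which degrades p53, read 336 and 353 against 657 and 718 (1.00 ± 0.22, adjusted p = 0.0445). Phlda3, Ccng1, Eda2r and Plk2 kept the call without each of the 4 arrays in turn. At Day6 Cdkn1a read 361 and 219, and in EG cells 115 and 122.

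**Figure D4:**
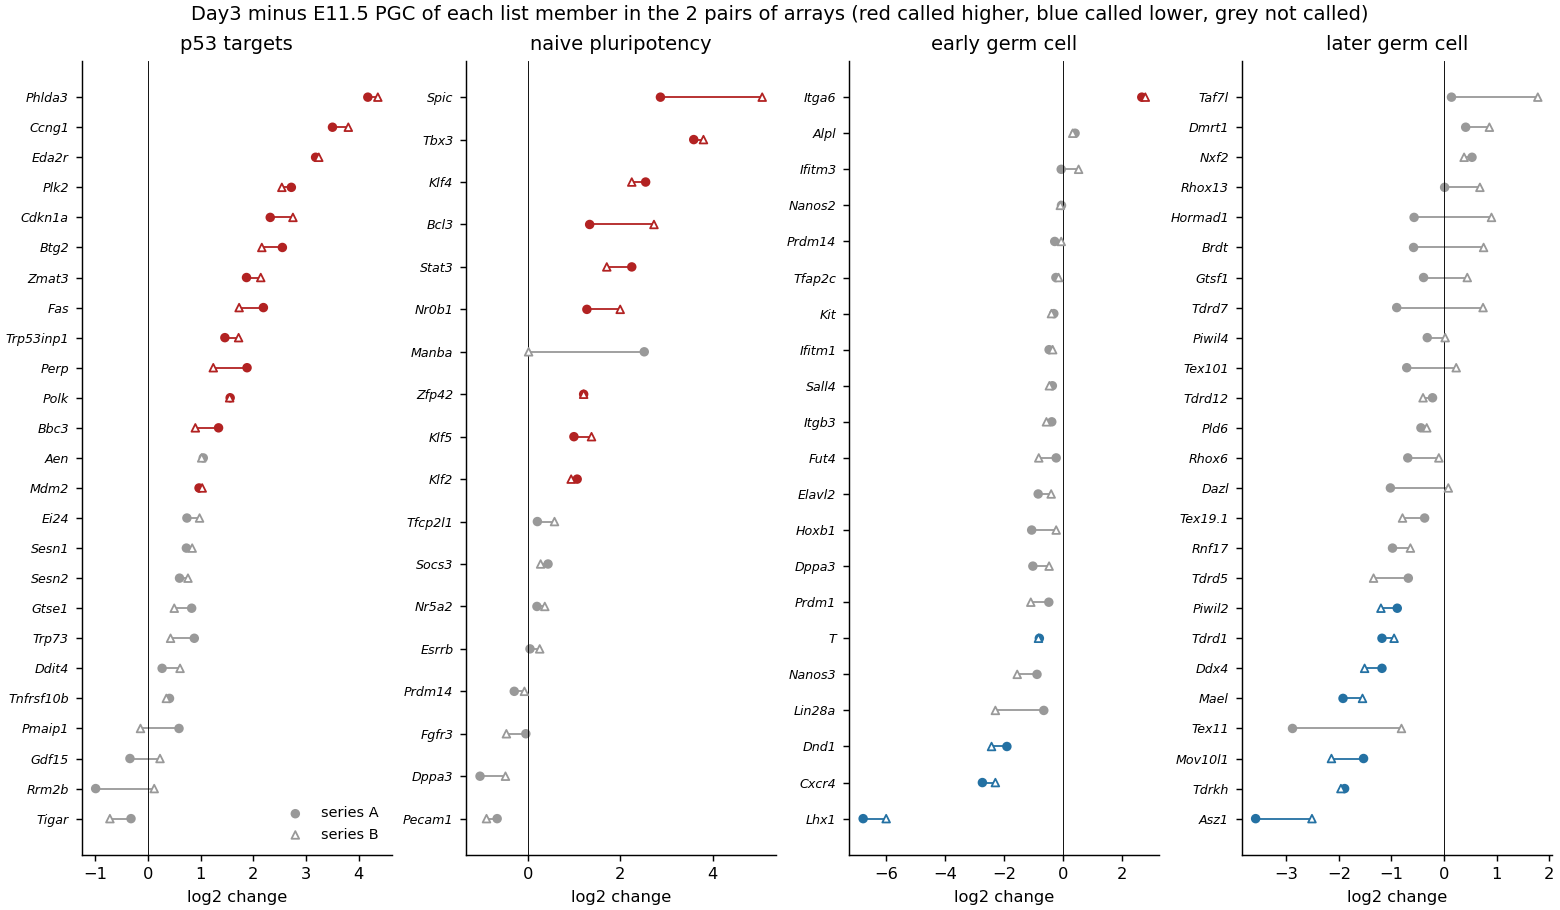
Log2 change from E11.5 PGC to Day3 (x axis) of each tested member of the p53 target, naive pluripotency, early germ cell and later germ cell lists (y axis), in series A (circles) and series B (triangles); red members were called higher, blue lower and grey not called. Every called p53 target lies to the right of 0 in both series, with Phlda3 at the top, and Lhx1 lies lowest among the early germ cell genes.

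Naive pluripotency genes were called higher about as often. Of 18 tested, 9 were higher (4; 5, 4, 1 and 1) and 0 lower, with 1 lower at an unadjusted limma p under 0.05, and the median change was 1.10. Klf4, a factor that LIF maintains in stem cells, read 55.9 and 49.2 against 326 and 234 (2.40 ± 0.26, adjusted p = 0.00603). Tbx3, a T-box factor of the naive network, read 4.94 and 10.7 against 59.5 and 149.6 (3.70 ± 0.22) and kept its call without each of the 4 arrays. Spic, an ETS factor, read 10.8 and 4.63 against 78.4 and 156 (3.97 ± 0.64). For all 3 genes the groups did not overlap. Zfp42, the Rex1 gene, rose from 1416 and 1235 to 3277 and 2865 (1.21 ± 0.21, adjusted p = 0.0221), a call lost with no replicate block and without any 1 of the 4 arrays. Stat3, Bcl3, Nr0b1, Klf5 and Klf2 rose by 1.98, 2.04, 1.64, 1.19 and 1.01. Esrrb, a target of GSK3 inhibition, was not called, at 7.20 and 17.5 against 7.44 and 21.0 (0.16 ± 0.23). Spic read 231 and 294 at Day6 but 2.67 and 7.75 in EG cells.

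The core pluripotency list was mixed. Of 17 tested members 3 were higher (2; 2, 2, 1 and 1) and 2 lower (0; 1, 0, 0 and 0), with a median change of 0.25. Nanog, whose promoter drives the reporter, read 1520 and 1707 in E11.5 PGC and 2671 and 4321 at Day3, a change of 1.08 ± 0.34 that was not called (adjusted p = 0.101). The FGF ligand Fgf4 read 1.82 and 2.46 against 21.7 and 53.5 (4.01 ± 0.28), from below the floor. Dnmt3l, a cofactor of the de novo DNA methyltransferases, read 4.20 and 3.38 against 96.7 and 22.5 (3.63 ± 0.51), also from below the floor. Fbxo15, an F-box gene active in stem cells, read 696 and 647 against 5698 and 3492 (2.73 ± 0.39). Utf1, a chromatin factor of pluripotent cells, fell from 4192 and 4537 to 1673 and 789.7 (−1.92 ± 0.31). Of the called members, Fgf4 alone kept its call without each of the 4 arrays in turn.

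The LIF and STAT3 list had 6 of 19 members higher (4; 5, 4, 1 and 0) and 0 lower, also 0 at an unadjusted limma p under 0.05, with a median change of 0.40. Besides Klf4, Stat3, Bcl3 and Klf5, already given, these were Saa3 (4.69 ± 0.43, from below the floor) and the kinase gene Sgk1. Sgk1 read 149.9 and 100.2 against 687 and 536 (2.31 ± 0.22).

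Germ cell genes were called lower more often than higher. Of 21 early germ cell genes, 4 were lower (3; 2, 3, 2 and 1) and 1 higher, with a median change of −0.54, and 18 of 21 were lower in both series. Dnd1, which shields germ cell mRNAs from microRNAs, fell from 2140.03 and 1555 to 568 and 288 (−2.17 ± 0.22, adjusted p = 0.00546). Cxcr4, the receptor that guides migrating PGCs, fell from 111 and 53.01 to 16.6 and 10.8 (−2.52 ± 0.44). Lhx1 has been given, and T, the Brachyury gene, fell by 0.83 from values near 10 at an adjusted p of 0.0498. Itga6, an integrin chain, was the exception and rose from 9.84 and 11.2 to 62.1 and 76.9 (2.72 ± 0.21). Specification genes were not called: Prdm1 read 19.7 and 44.3 against 14.0 and 20.6 (−0.80 ± 0.38), and Tfap2c read 713 and 503 against 600.33 and 452 (−0.20 ± 0.48). Their replicate ranges overlapped. Dppa3, the Stella gene, read 10543 and 5303 against 5176 and 3798 (−0.75 ± 0.68, adjusted p = 0.534), and the receptor Kit read 404 and 331 against 324 and 251 (−0.36 ± 0.43).

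Of 25 later germ cell genes, 7 were lower (0; 0, 2, 0 and 0) and 0 higher, also 0 at an unadjusted limma p under 0.05, with a median change of −0.40. All 7 calls were lost with no replicate block. They included factors of the piRNA pathway, which silences transposons in germ cells. Asz1 fell from 711 and 464 to 59.3 and 81.5 (−3.05 ± 0.66, adjusted p = 0.043). Tdrkh fell from 499 and 237 to 134 and 61.2 (−1.92 ± 0.26), and Mov10l1, an RNA helicase, from 30.4 and 52.5 to 10.5 and 11.9 (−1.84 ± 0.37). In these 3 genes no Day3 array reached an E11.5 PGC array. Ddx4, the Vasa helicase, fell from 626 and 498 to 277 and 175 (−1.34 ± 0.22, adjusted p = 0.0202), and Mael, Piwil2 and Tdrd1 fell by 1.74, 1.04 and 1.06. Dazl, an RNA-binding protein gene, was not called, with 2024 and 1867 against 999 and 1971 (−0.47 ± 0.71).

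Of 19 meiosis genes, 3 were lower (2; 0, 0, 0 and 0) and 0 higher, with 1 higher at an unadjusted limma p under 0.05. The median change was −0.18, with −1.09 for pair A, 0.10 for pair B and 0.33 without E11.5 PGC replicate 1. In that last setting 1 member was called higher, Stra8, the gene that starts meiosis under retinoic acid. It read 76.5 and 6.39 in E11.5 PGC and 104 and 1334 at Day3, the change furthest from 0 in the list (4.08 ± 1.66; 0.44 for pair A and 7.70 for pair B), and was not called with all arrays (adjusted p = 0.181). Stag3, a meiotic cohesin subunit, fell from 302 and 267 to 107 and 91.8 (−1.52 ± 0.23). Syce2, a synaptonemal complex gene, fell from 3657 and 1976 to 1718 and 922 (−1.09 ± 0.18). Spo11, the meiotic nuclease, fell from 16.5 and 14.1 to below the floor. At an unadjusted limma p under 0.05, 6 members were lower, against the 1 higher.

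Targets of the pathways that the named inhibitors act on were described next. Of 22 feedback genes of MEK and ERK, 4 were lower (0; 5, 2, 1 and 0) and 0 higher, with 3 higher at an unadjusted limma p under 0.05, and the median change was −0.12. Etv4, an ETS factor downstream of FGF, fell from 191 and 142 to 77.2 and 12.2 (−2.42 ± 0.48). The FGF inhibitors Il17rd and Spry1 fell by 1.94 ± 0.22 and 1.88 ± 0.25, and the ERK phosphatase Dusp4 by 1.70 ± 0.30. Both Day3 arrays of Etv4 were below the E11.5 PGC arrays, but they differed widely from each other. All 4 calls were lost with no replicate block. At an unadjusted limma p under 0.05, 7 members were lower, against the 3 higher. The largest changes either way, of Dusp6 (−3.07 ± 0.88) and Fosl1 (3.18 ± 0.91, from below the floor), were not called.

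Of 19 Wnt and beta-catenin targets, 3 were lower (0; 1, 0, 1 and 0) and 0 higher, with 2 higher at an unadjusted limma p under 0.05, and the median change was −0.34. These were Msx2 (−2.79 ± 0.43), Tcf7 (−1.06 ± 0.19) and T, and Msx2 is a BMP target as well. Msx2 read 227 and 197 in E11.5 PGC and 61.7 and 15.2 at Day3. Axin2, the usual readout of the pathway, read 1.23 and 5.29 against 2.21 and 4.88, near the floor in both groups. At an unadjusted limma p under 0.05, 6 members were lower, against the 2 higher.

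Of 19 Nodal and Activin targets, 5 were lower (2; 2, 2, 2 and 2) and 1 higher, with a median change of 0.03. Lefty1 and Skil, a corepressor that limits SMAD signalling, kept their calls with no block and without each of the 4 arrays. Skil read 57.8 and 55.1 in E11.5 PGC and 7.69 and 7.61 at Day3 (−2.88 ± 0.21, adjusted p = 0.00215), so the replicates nearly coincided. The inhibitory SMAD gene Smad7 fell by 1.48 ± 0.22, the SMAD partner Foxh1 by 1.40 ± 0.30 and the decoy receptor Bambi by 1.17 ± 0.22. Ccn2, which also responds to YAP, rose by 1.78 ± 0.35. Nodal itself read 149.0 and 130.3 against 209.5 and 138 and was not called (0.29 ± 0.21).

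Of 20 BMP targets, 5 were lower (2; 6, 2, 2 and 1) and 1 higher, with a median change of −0.67. Hey1 and Msx2 have been given, and Id4, an inhibitor of helix-loop-helix factors, fell from 156 and 172 to 30.6 and 28.7 (−2.47 ± 0.21). Id1 read 1186 and 767 against 394 and 29.8 (−3.14 ± 0.84) and was not called (adjusted p = 0.0718), with a wide gap between the Day3 arrays. Tbx3 was the member that rose.

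Genes of the integrated stress response, in which ATF4 raises amino acid supply when translation is limited, were higher for 8 of 34 members (3; 3, 1, 5 and 1) and lower for 0, with 1 lower at an unadjusted limma p under 0.05. The median change was 0.89, and 26 members were higher in both series. Nupr1, a stress-induced chromatin protein gene, read 4.27 and 1.61 in E11.5 PGC and 36.7 and 111 at Day3 (4.61 ± 0.78, from below the floor). Chac1, which degrades glutathione, read 15.9 and 6.23 against 119.8 and 196 (3.94 ± 0.81, adjusted p = 0.0369). Cth, which makes cysteine, read 21.8 and 18.5 against 185 and 156 (3.08 ± 0.20, adjusted p = 0.00175) and was the member called without each array in turn. The groups did not overlap in any of the 3, and the Day3 arrays of Nupr1 were the least even. The amino acid transporter Slc1a5, the asparagine synthetase gene Asns, Herpud1, Gpt2 and Atf3 rose by 1.98, 1.55, 1.51, 1.51 and 1.47. Atf4 itself read 1108 and 701 against 1207 and 1434 (0.58 ± 0.26), and Ddit3, the CHOP gene, read 122 and 81.6 against 249.8 and 207 (1.19 ± 0.53), neither of them called.

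Promoters of members that rose were searched for short motifs in the RefSeq promoter table (build GRCm38.p6), in a window from 250 bases before to 50 after each gene's start, on both strands. The core of the amino acid response element, TGATGCAA, was in 4 of the 6 called members found in the table, which are Nupr1, Chac1, Herpud1 and Atf3. It was in 9 of 29 members of the list (31.0%) and in 279 of 27025 genes in the table (1.03%). A match is a description of the letters and not evidence of binding. The list was chosen for this response, so its share may follow from that choice. The 250 bases before the start are shown for these 4 genes, with the motif on either strand in capitals, since they share the motif and were all higher at Day3. Chac1 lies at chr2:119350992-119351241, plus strand. Nupr1 is at chr7:126625471-126625720, minus strand, Herpud1 at chr8:94386179-94386428, plus strand, and Atf3 at chr1:191183334-191183583, minus strand.
Chac1: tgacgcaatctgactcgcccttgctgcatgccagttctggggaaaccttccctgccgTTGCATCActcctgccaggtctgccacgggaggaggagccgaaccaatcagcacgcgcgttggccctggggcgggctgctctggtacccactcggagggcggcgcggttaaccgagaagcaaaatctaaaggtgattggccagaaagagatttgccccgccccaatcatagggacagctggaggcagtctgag
Nupr1: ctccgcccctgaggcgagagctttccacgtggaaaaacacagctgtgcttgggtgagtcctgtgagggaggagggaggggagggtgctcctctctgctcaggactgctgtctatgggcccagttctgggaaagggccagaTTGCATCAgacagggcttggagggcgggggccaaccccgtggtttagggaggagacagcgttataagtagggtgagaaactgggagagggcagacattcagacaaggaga
Herpud1: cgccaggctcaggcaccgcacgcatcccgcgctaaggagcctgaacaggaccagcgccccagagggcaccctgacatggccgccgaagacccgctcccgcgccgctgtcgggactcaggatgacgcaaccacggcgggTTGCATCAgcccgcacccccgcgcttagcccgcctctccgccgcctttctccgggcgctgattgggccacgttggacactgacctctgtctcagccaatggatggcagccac
Atf3: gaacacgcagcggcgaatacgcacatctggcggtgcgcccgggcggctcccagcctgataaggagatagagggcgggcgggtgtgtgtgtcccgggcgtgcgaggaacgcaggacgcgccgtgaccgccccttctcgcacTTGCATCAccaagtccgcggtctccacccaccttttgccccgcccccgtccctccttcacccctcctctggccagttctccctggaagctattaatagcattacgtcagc

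Targets of YAP with TEAD and of SRF, which answer to cell shape and adhesion, were higher for 11 of 31 members (4; 4, 10, 0 and 0) and lower for 0, with 2 lower at an unadjusted limma p under 0.05. The median change was 1.07, but pair A gave 1.44 and pair B only 0.42. Ankrd1, an ankyrin repeat gene, read 5.71 and 1.01 in E11.5 PGC and 426 and 94.3 at Day3 (6.38 ± 1.15), so the size from the floor is not exact. Anxa1, an annexin, read 8.53 and 3.70 against 422 and 149 (5.48 ± 0.55). Amotl2, a feedback inhibitor of YAP, read 7.25 and 13.3 against 119.0 and 108 (3.53 ± 0.35, adjusted p = 0.00506), with even Day3 arrays. Ccn1 and Ajuba each rose by 2.36 ± 0.26, Tagln2 by 2.04 ± 0.33 and S100a11 by 1.81 ± 0.24. Tead1 and Tead4, which encode the DNA-binding partners, rose by 0.89 and 1.07. No member was called without each of the 4 arrays in turn. Ankrd1 read 445 and 3.97 at Day6, where the 2 arrays lay on either side of the floor.

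Fibroblast and mesenchyme markers were measured beside this group. Of 26 tested, 16 were higher in both series and 3 lower in both; 2 were called higher (1; 0, 0, 0 and 0) and 0 lower, with 1 lower at an unadjusted limma p under 0.05. The count higher was 8 without either Day6 array and 7 in the 4 arrays alone. Dcn rose by 4.22 ± 0.78 and Fbln1 by 0.95 ± 0.21. At an unadjusted limma p under 0.05, 7 members were higher, against the 1 lower. The median change was 0.73. It was 0.18 without E11.5 PGC replicate 1 and 1.34 without replicate 2. The summed intensity of 27 markers was 1483 and 1864 in E11.5 PGC and 3178 and 2407 at Day3. Of the 27, 17 and 20 were above the floor in E11.5 PGC and 23 and 23 at Day3, and Fbln2, Postn and Prrx1 were near it throughout. Fn1, the brightest, read 630 and 853 against 1100 and 975, and Sparc 226 and 247 against 566 and 400. Vim, the intermediate filament vimentin, read 282 and 344 against 834 and 215, and Dcn, the proteoglycan decorin, 4.53 and 8.31 against 75.9 and 173. The part of such cells in the YAP and SRF, MHC and matrix gene changes was not tested.

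The TEAD motif GGAATG, searched the same way, was in 6 of the 8 called members of the YAP and SRF list found in the table and in 13 of the 24 members (54.2%). It was in 16.6% of all genes. Of 29 stress response members, 1 had it. The list was chosen as targets of these factors, so its share may follow from that choice, and binding was not tested. Ankrd1 (chr19:36119845-36120094, minus strand) and Ajuba (chr14:54577662-54577911, minus strand) are shown as examples with 2 matches each, in capitals, and Tagln2 also has 2.
Ankrd1: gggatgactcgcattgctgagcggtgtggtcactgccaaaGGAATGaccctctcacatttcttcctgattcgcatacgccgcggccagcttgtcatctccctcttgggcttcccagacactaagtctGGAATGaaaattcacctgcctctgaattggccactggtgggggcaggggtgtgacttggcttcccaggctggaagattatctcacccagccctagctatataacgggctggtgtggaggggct
Ajuba: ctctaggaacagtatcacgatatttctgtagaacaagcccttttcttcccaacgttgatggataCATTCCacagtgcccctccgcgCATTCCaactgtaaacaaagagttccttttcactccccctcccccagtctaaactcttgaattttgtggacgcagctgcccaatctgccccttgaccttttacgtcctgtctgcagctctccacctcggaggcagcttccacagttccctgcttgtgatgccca

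PGCs of this stage are known to carry little DNA methylation. Of 19 genes that write, remove, bind or protect it, 5 were higher (1; 4, 3, 0 and 0) and 1 lower, with a median change of −0.14. The de novo enzyme gene Dnmt3b read 70.6 and 57.4 in E11.5 PGC and 725 and 415 at Day3 (3.11 ± 0.28, adjusted p = 0.00379). Uhrf1, which recruits Dnmt1 to newly copied DNA, read 166 and 81.3 against 741 and 355 (2.14 ± 0.22). Dnmt3a fell from 61.4 and 77.0 to 12.6 and 36.8 (−1.67 ± 0.32). Dnmt3b and Uhrf1 were higher on both Day3 arrays and Dnmt3a was lower on both. The maintenance enzyme Dnmt1 read 756 and 579 against 817 and 359 and was not called (−0.29 ± 0.24). Dnmt3l was described above, and Tet2 and Apobec1 rose by 1.54 and 1.81.

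Imprinted genes went both ways, with 4 of 23 higher (2; 0, 0, 0 and 0) and 4 lower (1; 1, 1, 3 and 0), and a median change of −0.30. Igf2 has been given. Cdkn1c, an inhibitor of cyclin-dependent kinases, fell from 221 and 200.4 to 57.9 and 14.4 (−2.86 ± 0.56), and Slc22a18 from 36.4 and 72.2 to 3.93 and 14.6 (−2.76 ± 0.52). Dcn (4.22), Sgce (2.95), Plagl1 (1.82) and Impact (1.45) rose and Usp29 fell by 1.78.

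Lysosome and autophagy genes were higher for 8 of 27 members (2; 1, 3, 1 and 1) and lower for 0, also 0 at an unadjusted limma p under 0.05. The median of pair A was 0.86 and that of pair B 0.20. Besides Cd63, the carboxypeptidase Ctsa rose from 295 and 317 to 999 and 862 (1.60 ± 0.21), and the membrane protein gene Lamp2 from 36.2 and 97.3 to 109 and 394 (1.80 ± 0.35). Both Day3 arrays of each gene lay above both E11.5 PGC arrays. Ctsl, Ctsb, Hexa, Npc2 and Atp6v1a rose by 1.55, 1.29, 1.26, 1.24 and 0.92.

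Genes of the NRF2 and oxidative stress list were higher for 7 of 26 (2; 2, 4, 1 and 1) and lower for 1, with a median change of 0.73. The metallothionein Mt1, which binds metal ions and has a near-identical relative in Mt2, read 555 and 505 against 7451 and 2857 (3.12 ± 0.31). Mt2 rose by 2.51 ± 0.30 and the glutathione transferase Gsta4 by 2.17 ± 0.19, while Gstm1 fell from 219 and 294 to 63.6 and 59.7 (−2.04 ± 0.25). The probes of such families may cross-react, so their separate sizes are uncertain.

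Lists of energy metabolism, lipid synthesis and the cell cycle were described last among the pathways. Of 30 oxidative phosphorylation genes 0 were called by limma in either direction, and 1 was higher and 4 lower at an unadjusted p under 0.05. Their median change was −0.29, and 23 of 30 were lower in both series. Over all probes tested, 69.6% moved the same way in both series, counting either direction. Of 31 cell cycle genes 1 was called, Cdk2, which read 31.6 and 78.7 against 56.3 and 143 (0.85 ± 0.19, adjusted p = 0.0486). At an unadjusted limma p under 0.05, 8 cell cycle genes were lower and 1 higher, 16 were lower and 5 higher in both series, and the trend and robust variance called 5 lower. Their median change was −0.18. Over all 20678 probes tested, 5452 passed that unadjusted limit in either direction. Of 26 glycolysis genes 2 were higher (2; 1, 1, 0 and 0), the glucose transporter Slc2a3 (574 and 401 against 2195 and 1735, 2.02 ± 0.23) and the hexokinase Hk2 (223 and 193 against 586 and 585, 1.5 ± 0.22). Of 19 cholesterol synthesis genes 2 were lower (0; 1, 0, 0 and 0), Stard4 (−1.61 ± 0.20) and Idi1 (−1.19 ± 0.23), with a median change of −0.59. At an unadjusted limma p under 0.05, 10 of the 19 were lower and 1 higher, and 7 were called lower with a pseudocount or with the trend and robust variance.

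Of 20 apoptosis regulators 4 were higher (1; 1, 2, 0 and 0) and 1 lower, with a median change of 0.23. Fas and Bbc3 belong to the p53 list too. Bok, a BCL2 family effector, read 39.8 and 26.1 against 183 and 60.2 (1.70 ± 0.27), and Apaf1, the apoptosome scaffold, 27.2 and 27.8 against 65.6 and 57.3 (1.16 ± 0.20). Bmf fell by 1.36 ± 0.25 from values just above the floor.

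Of 21 epithelial junction genes 4 were higher (2; 4, 1, 0 and 0) and 1 lower, with a median change of 0.70. Spint1, a protease inhibitor of epithelia, rose from 19.6 and 9.54 to 171 and 82.3 (3.12 ± 0.32). The tight junction gene Cldn6 rose from 28.2 and 29.9 to 149.0 and 164 (2.43 ± 0.29) and read 17.8 and 24.8 at Day6. The splicing regulator Esrp1 fell from 545 and 554 to 164 and 71.4 (−2.34 ± 0.54, limma adjusted p = 0.049), the only member called lower. In both series 10 members were higher and 6 lower.

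The MHC class I and interferon list had 5 of 17 members higher (2; 0, 4, 2 and 0) and 1 lower, and the medians of pairs A and B were 0.47 and 1.24. Besides B2m and Ly6c1, the interferon-induced gene Ifi35 rose from 5.24 and 6.04 to 46.8 and 77.0 (3.41 ± 0.40), the peptide transporter Tap1 by 1.78 ± 0.26 and Irf9 by 1.45 ± 0.19. Irf1, an interferon response factor, fell from 822 and 655 to 306 and 305 (−1.26 ± 0.25). Tap2, Tapbp, Psmb8, Psmb9, Psmb10 and Nlrc5 were not called, and no heavy chain gene of MHC class I was among the 17 tested.

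Of 38 Hox and developmental factors 5 were lower (3; 3, 4, 2 and 2) and 2 higher (0; 0, 1, 0 and 0), with a median change of −0.03. After Lhx1 and Mkx, the LIM homeobox gene Isl2 fell from 140.4 and 210.4 to 25.2 and 37.2 (−2.49 ± 0.23). Pax8 and Hoxd3 fell by 2.00 and 1.36 from low levels. Pax6, an eye and neural factor, rose from 43.8 and 33.6 to 143 and 94.7 (1.60 ± 0.26) and read 7.42 and 5.04 at Day6. Hoxb7 rose by 1.75 ± 0.31.

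Markers of other cell types of the gonad and embryo were listed as well. Blood and macrophage markers were lower for 4 of 16 (1; 2, 2, 0 and 0) and higher for 0, also 0 at an unadjusted limma p under 0.05, with a median change of −0.86. Tyrobp, a signalling adaptor of myeloid cells, fell from 43.3 and 34.6 to 11.4 and 12.3 (−1.70 ± 0.21), and C1qa and C1qb were bright mainly on E11.5 PGC replicate 2, at 31.3 and 27.5 against 5.03 and 7.54 on replicate 1. The summed intensity of 18 such markers was 243 and 394 in E11.5 PGC and 246 and 219 at Day3. Above the floor were 11 and 15 of the 18 in E11.5 PGC and 7 and 10 at Day3. Cd68 read 64.2 and 73.6 against 129 and 65.5. Adgre1, Cd14 and Itgam lay near the floor on all 4 arrays. Gonadal somatic markers were higher for 2 of 20 (0; 0, 0, 0 and 0) and lower for 2 (1; 1, 0, 0 and 0), with sums of 482 and 436 against 638 and 692, and Amh, Hsd3b1, Inha, Nr5a1 and Star near the floor throughout. Of 23 gonadal somatic markers with a probe, 13 and 15 were above the floor in E11.5 PGC and 11 and 13 at Day3. Dmrt1, also a later germ cell gene here, read 121 and 103 against 160 and 186. Cbln1 read 112 and 86.4 against 85.3 and 30.4, and Podxl 47.9 and 34.0 against 105 and 65.2. The highest gonadal somatic member at Day3, Nr0b1, is a naive pluripotency gene as well. Endothelial markers were higher for 1 of 19 (Eng) and lower for 1 (Cldn5, from 105 and 80.7 to 9.99 and 14.1). Cdh5, Emcn, Icam2, Ramp2, Robo4, Sox17 and Sox18 were near the floor. Of 20 with a probe, 11 and 11 were above the floor in E11.5 PGC and 12 and 10 at Day3. Egfl7 read 189 and 177 against 317 and 191. Pecam1, on the naive pluripotency list too, read 184 and 377 against 117 and 203. Extraembryonic markers were higher for 1 of 17, Lama1, and lower for 0, also 0 at an unadjusted limma p under 0.05. The part of these cell types in the changes was not tested.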

How the data were processed

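Per the labels' protocols, RNA was extracted with a column kit, made into aminoallyl RNA and labelled with Cy5. The deposited values are linear spot intensity, which the authors scaled so that array medians lie near 20. How background was corrected, how arrays were scaled and why some values are missing is not given in the sources used here. Values were converted to log2 and not normalized further. A symbol was available for 16631 probes and not for 6842; 12622 symbols were current, 3947 were updated through synonyms and 62 kept as given. Pou5f1 and Sox2 had no named probe.

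Each probe was fitted in limma 3.58.1 (R 4.3.3) on all 8 arrays with terms for the group and the array series, leaving 3 residual degrees of freedom (the 4 arrays alone leave 1). P-values were two-sided, moderated and adjusted by Benjamini-Hochberg over the 20678 probes with values on all 4 arrays compared. Another 2795 probes were not tested. The series were treated as pairs because the rule of the comparison pairs equal replicate numbers. Deviations of the replicates correlated (0.62 between E11.5 PGC and Day3, 0.55 between E11.5 PGC and Day6, 0.69 between Day3 and Day6). With the EG arrays, both of series A, they showed almost no correlation (−0.025 for E11.5 PGC, 0.005 for Day3 and 0.061 for Day6). On simulated data for this comparison, 100 of 100 probes changed by 2 log2 units and 100 of 100 changed by 3 were recovered. On the measured arrays, changes larger than 2 log2 units with uneven replicates were not always called, such as Id1 (−3.14 ± 0.84) and Dusp6 (−3.07 ± 0.88). The simulated count is thus no measure of how many such changes were found here. Array number and signal over background limit precision.

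Named were the 12 highest and 12 lowest called changes above the floor on all 4 arrays and alike in both series; 6 each way with 1 group near the floor, ranked by the dimmer array of the brighter group; the 4 brightest each way seen in 1 group only; the 3 largest called changes of each list; and 13 germ cell and pluripotency markers. Further members were named after their values were seen. A gene with several probes was taken at its brightest. The members, lists and rules were chosen with earlier results of these data known. Settings tried were other blocks, normalizations, filters, a pseudocount of 2.275, other variance models and leaving out arrays.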

Additional observations from a re-analysis of the deposited data

How the results depend on the processing

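The replicate block decided much of the count. Against 1725 calls with the array series as the block (898 higher, 827 lower), no replicate block gave 431 (275, 156), and the replicate number as the block gave 804 (475, 329). The series block and the replicate-number block differ only in EG replicate 2, which is of series A. Without the EG arrays 935 were called (543, 392), a number that leaving out either EG array repeats, since a lone EG array adds no residual. A pseudocount gave 2711 calls (1492 lower) and the trend and robust variance 2834 (1525 lower). Leaving out 1 array gave 105 to 1822 calls, 73 to 1001 higher and 32 to 821 lower. The 140 list members called became 51 with no replicate block, 88 with the replicate number, and 16 to 158 with 1 array left out. At a threshold of 2 log2 units in both series, 240 probes were higher and 113 lower, and with all 4 arrays above the floor 413 were lower by 1 unit. Of the probes seen in 1 group only, 2 and 3 remained when the brighter group had to be above the floor on both arrays. No called probe among those named or listed changed sign. Medians of 5 lists did: meiosis (−0.18) was 0.33 without E11.5 PGC replicate 1; DNA methylation (−0.14) was 0.03 after quantile normalization, 0.08 without Day3 replicate 2 and 0.15 without E11.5 PGC replicate 1; Nodal and Activin targets (0.03) were −0.07 without Day3 replicate 1 and −0.01 without E11.5 PGC replicate 1; developmental factors (−0.03) were 0.01 after centring and 0.04 without E11.5 PGC replicate 2; and gonadal somatic markers (−0.15) were 0.56 with dim probes left out and 0.01 without E11.5 PGC replicate 1. Of 167 genes called among the named and listed ones, 75 were called the same way with no replicate block, 148 in the 4 arrays alone, 151 after quantile normalization, 162 after centring, and 33 to 81 of the 166 tested when 1 of the 4 arrays was left out. Settings with the Day6 or EG arrays left out singly, and a floor for the within-series counts, were chosen after seeing the data. Dim probes limit sizes near the floor, and with 2 arrays a group the spread rests in part on the Day6 and EG arrays. The cause of these differences was not tested.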

Other observations

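Some probes had a value on both arrays of 1 group and on neither of the other, 85 at Day3 only and 118 in E11.5 PGC only. Of these, 2 and 3 were above the floor on both arrays. Why values are missing is not stated, so no fold is given. At Day3 only, the prolactin family gene Prl2c5, which has near-identical relatives, read 70.0 and 10.6, and BC053393 read 6.30 and 5.13. Il6, the interleukin 6 gene, read 13.4 and 3.98. Zfp57, which protects imprints, read 5.08 and 11.4 there, 27.2 and 43.6 on the Day6 arrays, and 23.1 and 30.5 in EG cells. In E11.5 PGC only, the zinc finger gene Bcl11a read 32.2 and 53.5, Foxi1 read 5.72 and 4.26, Nlrc4 read 4.01 and 15.7, and Aadat read 3.63 and 3.08.

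A few genes changed by more than 1 log2 unit in opposite directions in the 2 series, and were chosen after their values were seen. The actin-binding thymosin gene Tmsb4x read 308 and 720.0 in E11.5 PGC and 1153 and 351 at Day3, a change of 1.90 for pair A but −1.04 for pair B. Plbd1, a phospholipase B-like gene, read 79.6 and 113 against 16.3 and 334, and Gng2, a G protein subunit gene, 60.1 and 64.9 against 164 and 28.1. Magea8, of the MAGE family on the X chromosome, read 15.8 and 16.4 against 6.57 and 83.4. None was called, and which replicate is the typical one was not tested.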
